A study of Mus musculus with 9 samples.

Results

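Expression of 32 genes of cholesterol synthesis, its sterol-sensing control, uptake and efflux was examined in mouse myeloma cells carrying gRNAs against glucose transporters. The 32 genes were chosen by their known role in the pathway, with earlier results of these data in view, and all 32 were found by symbol among the 53077 gene names of the deposited tables. They comprise 18 synthesis enzymes, 5 regulators of the SREBP transcription factors, 5 genes of uptake, lysosomal egress, transfer and storage, and 4 genes of the liver X receptors (LXR) and efflux pumps. The cells were 5TGM1, a mouse multiple myeloma line, and all groups carried lentivirally expressed Cas9. Control cells received a *Rosa26* gRNA, another group received an *Slc2a1* gRNA, and the last received 5 gRNAs, adding *Slc2a8*, *Slc2a6*, *Slc2a5* and *Slc2a3* as targets, with 3 replicates in each group. *Slc2a1* encodes GLUT1, a widely expressed glucose transporter. The gRNA-transduced cultures were bulk populations of edited and unedited cells, not clones. The line with 5 gRNAs was first sorted for reporters of the other 4 gRNAs and expanded before the *Slc2a1* gRNA was added, so that history cannot be told apart from the number of genes targeted.

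Cholesterol is built from acetyl-CoA through mevalonate, farnesyl diphosphate, squalene and lanosterol. Most enzymes of the route are transcribed under SREBP2, the product of *Srebf2*. When sterols in the endoplasmic reticulum run low, SCAP escorts SREBP2 to the Golgi for cleavage, and when sterols are plentiful the INSIG proteins hold SCAP back. Oxidised sterols activate the LXR nuclear receptors, which raise transcription of the pumps *Abca1* and *Abcg1* and of *Mylip*, a ubiquitin ligase that removes lipoprotein receptors from the surface. Plasma cells and myeloma cells maintain a large endoplasmic reticulum for antibody secretion, whose membranes hold the sensors of this system.

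The tables held Salmon estimated counts that summed to between 21838805 and 30537105 per sample. Counts scaled to library size with TMM factors (CPM) are used to compare samples, and TPM, which also corrects for gene length, to compare genes. Of the plasma cell markers, *Xbp1* lay between 384 and 568 TPM and *Irf4* between 88.9 and 154 TPM in the 9 samples, while *Tnfrsf17* did not exceed 1.36 TPM. T cell, fibroblast and hepatocyte markers did not exceed 1.65 TPM, and of the macrophage markers *Cd68* alone was present, at 29.9 to 97.2 TPM. *Slc2a1* itself stood at 198, 95.2 and 94.0 CPM in control gRNA, 123, 98.5 and 98.0 in *Slc2a1* gRNA and 93.3, 91.8 and 52.9 in *Slc2a1/3/5/6/8* gRNA replicates 1, 2 and 3. With the *Slc2a1* gRNA it overlapped control (log2 fold change -0.21 ± 0.18 (SE), adjusted p = 0.54) and was at 63.3% of control with the 5 gRNAs (adjusted p = 0.029), so its mRNA level does not check the edit in the first group. Of the other targets, with the 5 gRNAs *Slc2a8* fell to 42.9% (adjusted p = 3.1e-04) and *Slc2a6* to 62.9% (adjusted p = 0.037), whereas *Slc2a3* was at 120.4% (adjusted p = 0.26) and *Slc2a5* rose 6.27-fold, from under 1 CPM in control to between 1.27 and 1.81 CPM (adjusted p = 0.0048). The mRNA of *Slc2a3* and *Slc2a5* thus did not fall with their gRNAs, and groups are named here by the gRNAs they received. By another test, the study reports a significant reduction of *Slc2a1* transcripts in its deleted cultures. It also checked edits by other means, with fewer GLUT1-positive cells and less radioactive glucose uptake after *Slc2a1* targeting. In cultures with the 5 gRNAs it found frameshift mutations in each targeted gene. Control replicate 1 was high for *Slc2a1* among the controls. The study calls the replicates biological, and the labels number them without naming separate cultures, so p-values measure the spread between these samples. In bulk samples such as these, fewer expressing cells and less RNA per cell cannot be told apart.

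The promoters of 26 of the 32 genes were found in RefSeq (GRCm38.p6), each covering 250 bases before and 50 bases after a transcription start. The windows printed here, with at most 200 bases before the RefSeq start and none inside the GENCODE gene, are shown for 2 enzymes and 2 regulators that were lower in cells with transporter gRNAs and for 1 pump that was higher. Each is written 5′ to 3′ on the gene's strand, and capitals mark TCACNCCA, a form of the sterol regulatory element, CCAAT, the core of the NF-Y site, and CACGTG, an E-box, on either strand. *Hmgcs1*, plus strand, is at chr13:119690151-119690350. *Mvd*, minus strand, is at chr8:122443423-122443622. *Srebf2*, plus strand, is at chr15:82147069-82147180. *Insig1*, plus strand, is at chr5:28071212-28071362. *Abca1*, minus strand, is at chr4:53159896-53160095.
Hmgcs1: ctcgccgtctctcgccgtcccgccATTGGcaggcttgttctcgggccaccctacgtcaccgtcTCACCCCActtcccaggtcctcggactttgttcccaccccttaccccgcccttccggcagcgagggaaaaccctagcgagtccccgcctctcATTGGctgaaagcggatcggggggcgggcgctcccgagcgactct
Mvd: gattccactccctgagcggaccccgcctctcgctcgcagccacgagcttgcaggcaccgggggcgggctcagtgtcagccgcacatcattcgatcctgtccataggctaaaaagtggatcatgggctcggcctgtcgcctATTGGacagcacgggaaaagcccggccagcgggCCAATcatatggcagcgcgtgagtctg
Srebf2: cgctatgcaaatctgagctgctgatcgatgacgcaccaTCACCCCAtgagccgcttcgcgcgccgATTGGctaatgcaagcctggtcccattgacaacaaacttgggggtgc
Insig1: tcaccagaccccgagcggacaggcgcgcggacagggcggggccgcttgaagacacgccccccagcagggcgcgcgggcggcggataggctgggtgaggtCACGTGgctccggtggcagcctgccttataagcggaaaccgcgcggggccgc
Abca1: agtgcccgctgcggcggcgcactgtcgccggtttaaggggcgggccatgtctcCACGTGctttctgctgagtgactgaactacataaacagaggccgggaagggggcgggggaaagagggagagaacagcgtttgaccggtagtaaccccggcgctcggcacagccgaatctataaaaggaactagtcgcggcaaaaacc

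TCACNCCA occurred in 3 of the 26 promoters, against 4.97% of 27025 genes with a promoter in RefSeq. The 3 were *Hmgcs1*, *Srebf2* and *Msmo1*, where the match began 137, 162 and 177 bases before the start. CCAAT occurred in 21 of the 26, against 41.1% of all genes, and GGGCGG, the GC box bound by Sp1, in 23, against 38.2%. CACGTG was found in 6, against 8.09%, and these were *Hsd17b7*, *Sc5d*, *Dhcr7*, *Insig1*, *Scap* and *Abca1*. Of the 15 genes with a promoter that fell with the 5 gRNAs, 13 held CCAAT, and of the 3 that rose, 1 did. Among those that did neither, *Pmvk*, *Tm7sf2*, *Hsd17b7*, *Sc5d*, *Insig2*, *Srebf1* and *Soat1* held it and *Nr1h3* did not. CCAAT was therefore not particular to the genes that fell. All motifs were searched on both strands, none of the capitalised matches overlap, and a match describes letters in the window and not a bound site.

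In control gRNA-transduced cells, levels of the genes with counts ran from 134 TPM down to 4.19 TPM for *Mylip*, with *Nr1h3* lower still. *Fdps*, the synthase of farnesyl diphosphate, had the highest level of the 32 at 134 ± 7.28 TPM (SD, n = 3), followed by *Npc2* at 125 ± 7.62 and *Srebf2* at 123 ± 9.32. These 3 did not differ beyond their spread. *Insig1* came next at 95.8 ± 12.6 TPM, with no replicate reaching those of the first 3, and *Nr1h2*, which encodes LXR beta, at 56.4 ± 9.39 TPM. From *Sqle* at 48.0 ± 4.81 TPM down to *Cyp51* at 37.0 ± 5.23 TPM lay 5 enzymes, each overlapping the next. *Srebf1* stood at 29.5 ± 3.43 TPM, so the mRNA of *Srebf2* was the more abundant of the SREBP pair in every control replicate. Of the 17 enzymes with counts, the lowest were *Fdft1* at 8.77 ± 0.253 and *Tm7sf2* at 6.64 ± 0.541 TPM. *Nr1h3*, which encodes LXR alpha, had between 7 and 22 estimated counts in any sample, so values for it carry little precision.

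**Figure D1:**
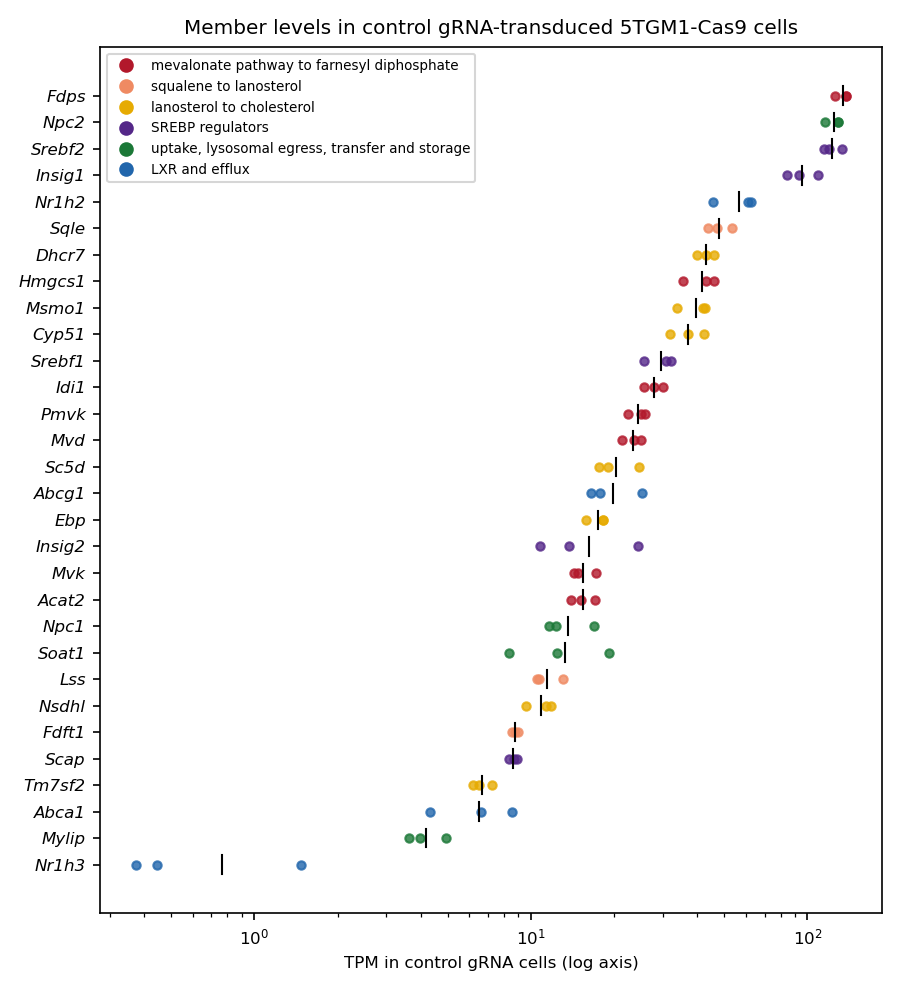
TPM on a log axis for the 30 genes with counts, in the 3 control gRNA replicates (points, coloured by role) with their mean (bar). *Fdps*, *Npc2* and *Srebf2* lead at 134, 125 and 123 TPM and *Nr1h3* is last at 0.762 TPM. *Hsd17b7* and *Stard4*, listed at 0, cannot be drawn on this axis.

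*Hsd17b7* and *Stard4* were listed at 0 counts in all 9 samples. *Hsd17b7* encodes the ketoreductase that acts with *Nsdhl* in removing methyl groups from the sterol ring, and *Stard4* a carrier of cholesterol between membranes. A count of 0 allows, at 3 counts, up to 0.0556 to 0.0773 TPM of *Hsd17b7* and 0.0539 to 0.0748 TPM of *Stard4*, counting error alone considered. Whether these zeros belong to the cells or to the transcripts in the Salmon index, which the sources used here do not describe, cannot be told apart, so they are not read as lack of expression.

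The first comparison asked how the synthesis enzymes differed between gRNA-transduced and control cells. Summed over the 17 enzymes tested, synthesis mRNA was 1093, 1260.0 and 1071 CPM in control replicates 1, 2 and 3, 729.7, 629.5 and 815.7 CPM with the *Slc2a1* gRNA, and 590.6, 625.4 and 612.5 CPM with the 5 gRNAs. No replicate of the 2 groups that received gRNAs against transporters, called targeted here, reached the lowest control. Mitochondrial transcripts took 8.01%, 8.01% and 4.84% of counts in control, 8.69%, 10.5% and 6.57% with the *Slc2a1* gRNA and 11.1%, 5.84% and 4.91% with the 5 gRNAs in replicates 1, 2 and 3, higher than the same-numbered control in every targeted sample but replicate 2 of the 5 gRNAs, and their part in these results was not tested. Of 17 enzymes tested, 10 fell with the *Slc2a1* gRNA and 14 with the 5 gRNAs, and all 17 had a negative log2 fold change in both. The median enzyme was at 65.3% of control with the *Slc2a1* gRNA and at 56.4% with the 5 gRNAs, where the median of all 13834 genes had a log2 fold change of -0.0013 and 0.0072. Across the 30 tested genes of the whole list, 12 fell and 4 rose with the *Slc2a1* gRNA, against 2.39% and 2.25% of all genes. With the 5 gRNAs 18 fell and 4 rose, against 7.44% and 8.49%. All 3 *Slc2a1* gRNA replicates lay below all 3 controls for 18 of the 30 (13.0% of all genes), and all 3 replicates with the 5 gRNAs for 21 (17.2%). The list was assembled with this contrast known, so its counts are descriptions, and both comparisons share the control samples.

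The calls with the *Slc2a1* gRNA leaned on single libraries. Against 16 of the 30 tested genes with all samples, none passed edgeR's test without control replicate 2 (21 of the 30 at an unadjusted p under 0.05), and 2 passed without *Slc2a1* gRNA replicate 2, namely *Hmgcs1* and *Abcg1*. Without control replicate 3, *Slc2a1* gRNA replicate 1 or control replicate 1, 5, 6 and 7 of the 30 passed. Of the samples compared, only leaving out *Slc2a1* gRNA replicate 3 kept most calls, with 17 passing, among them 15 of the 16. Leaving out a replicate of the 5 gRNAs gave 17 to 20, among them all 16. Those replicates are outside this comparison and enter it only through the shared fit. The fold changes moved less than the calls, for without control replicate 2 *Hmgcs1* was at -1.05 (adjusted p = 0.053), *Insig1* at -0.78 (adjusted p = 0.0686) and *Abcg1* at 0.91 (adjusted p = 0.053). Without control replicate 2 the number of all genes past the threshold dropped from 642 to 11. Control replicate 2 was the highest control for 13 of the 17 enzymes, and *Slc2a1* gRNA replicate 2 the lowest of its group for 14. With the 5 gRNAs, 15 to 23 genes of the list passed when any 1 sample was left out, against 22. No gene past the threshold in either comparison changed direction under any alternative run.

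**Figure D2:**
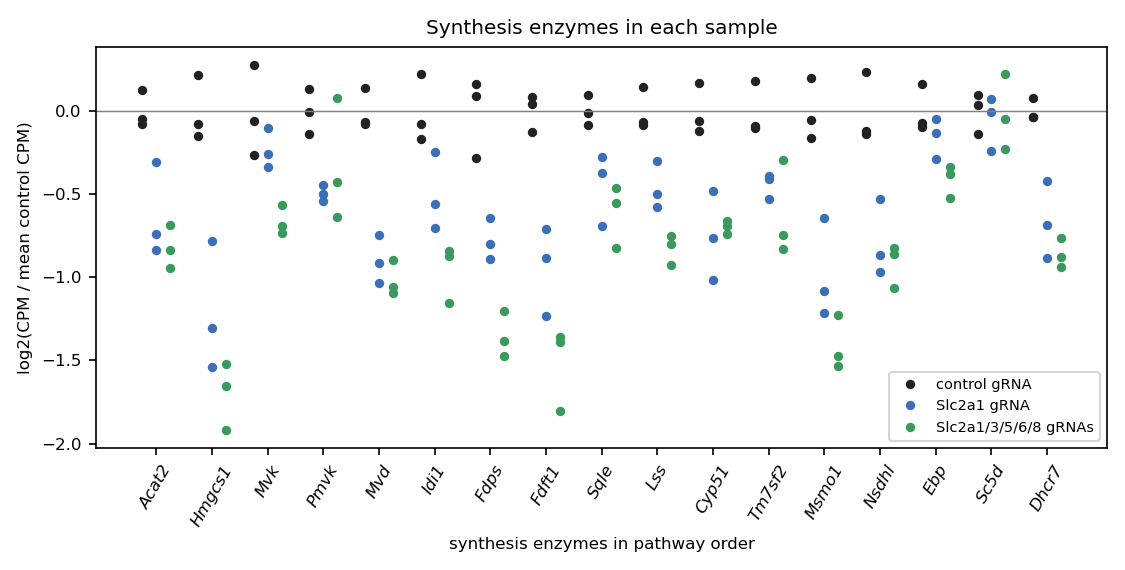
log2 of CPM over the mean control CPM for 17 synthesis enzymes in pathway order, with a point per replicate (black, control gRNA; blue, *Slc2a1* gRNA; green, *Slc2a1/3/5/6/8* gRNAs). The green points of *Hmgcs1*, *Fdps*, *Fdft1* and *Msmo1* lie more than 1 log2 unit below the control mean, whereas *Sc5d* overlaps control in all groups.

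Of the 7 enzymes from acetyl-CoA to farnesyl diphosphate, 4 fell with the *Slc2a1* gRNA and 6 with the 5 gRNAs. *Hmgcs1*, the cytosolic HMG-CoA synthase at chr13:119690379-119708260, stood at 122, 157 and 128 CPM in control gRNA, 55.0, 46.7 and 78.9 in *Slc2a1* gRNA and 36.0, 47.3 and 43.3 in *Slc2a1/3/5/6/8* gRNA replicates 1, 2 and 3. It had the largest fall of the 30 tested genes, to 44.0% of control with the *Slc2a1* gRNA (log2 fold change -1.18 ± 0.17 (SE), adjusted p = 0.0063) and to 30.9% with the 5 gRNAs (-1.69 ± 0.17 (SE), adjusted p = 1.4e-04). *Fdps* was at 156, 165 and 121 CPM in control gRNA, 94.3, 79.4 and 84.6 in *Slc2a1* gRNA and 64.0, 53.1 and 56.5 in *Slc2a1/3/5/6/8* gRNA replicates 1, 2 and 3. Its 3 groups did not overlap, with log2 fold changes of -0.77 ± 0.12 (SE) (adjusted p = 0.0088) and -1.34 ± 0.12 (SE) (adjusted p = 8.2e-05).

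*Mvd*, the decarboxylase of mevalonate diphosphate, was at 37.3, 43.2 and 37.6 CPM in control gRNA, 20.9, 19.2 and 23.5 in *Slc2a1* gRNA and 21.2, 18.9 and 18.4 in *Slc2a1/3/5/6/8* gRNA replicates 1, 2 and 3. It fell to 53.9% and 49.5% of control (adjusted p = 0.0063 and 5.6e-04), and the targeted groups overlapped each other. *Idi1*, the isopentenyl diphosphate isomerase, was at 79.2, 97.2 and 74.3 CPM in control gRNA, 56.7, 51.3 and 70.4 in *Slc2a1* gRNA and 37.5, 46.6 and 45.6 in *Slc2a1/3/5/6/8* gRNA replicates 1, 2 and 3. All targeted replicates were below control, and the fall passed with the 5 gRNAs (-0.96 ± 0.14 (SE), adjusted p = 0.0015) but not with the *Slc2a1* gRNA (-0.49 ± 0.14 (SE), adjusted p = 0.066), where DESeq2 called it. *Acat2*, here the cytosolic acetoacetyl-CoA thiolase of the first step, was at 31.8, 36.6 and 32.5 CPM in control gRNA, 20.1, 18.8 and 27.1 in *Slc2a1* gRNA and 17.5, 20.9 and 18.8 in *Slc2a1/3/5/6/8* gRNA replicates 1, 2 and 3. Its log2 fold changes were -0.62 ± 0.14 (SE) and -0.82 ± 0.14 (SE) (adjusted p = 0.031 and 0.0031). *Mvk*, the mevalonate kinase, was at 22.4, 28.2 and 19.4 CPM in control gRNA, 21.7, 19.5 and 18.5 in *Slc2a1* gRNA and 15.8, 14.4 and 14.03 in *Slc2a1/3/5/6/8* gRNA replicates 1, 2 and 3. It overlapped control with the *Slc2a1* gRNA (-0.22, adjusted p = 0.36) and fell with the 5 gRNAs (-0.65, adjusted p = 0.0084). *Pmvk*, the next kinase, passed in neither comparison, at 71.3% and 80.2% of control (adjusted p = 0.060 and 0.13), although DESeq2 called it with the *Slc2a1* gRNA.

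The 3 enzymes from squalene to lanosterol all fell with the 5 gRNAs. *Fdft1*, the squalene synthase that commits farnesyl diphosphate to sterols, was at 28.1, 27.4 and 24.3 CPM in control gRNA, 16.2, 11.3 and 14.4 in *Slc2a1* gRNA and 10.3, 10.2 and 7.62 in *Slc2a1/3/5/6/8* gRNA replicates 1, 2 and 3. It dropped to 52.5% of control with the *Slc2a1* gRNA (-0.93 ± 0.15 (SE), adjusted p = 0.010) and to 35.1% with the 5 gRNAs (-1.51 ± 0.15 (SE), adjusted p = 1.7e-04), and its 3 groups did not overlap. *Sqle*, the squalene epoxidase, was at 129, 146 and 135 CPM in control gRNA, 105, 84.6 and 112 in *Slc2a1* gRNA and 77.0, 99.0 and 93.2 in *Slc2a1/3/5/6/8* gRNA replicates 1, 2 and 3. Every targeted replicate was below control, and the fall passed with the 5 gRNAs (-0.61, adjusted p = 0.0098) but not with the *Slc2a1* gRNA (-0.44, adjusted p = 0.075), where DESeq2 called it, and the difference between the targeted groups did not pass (-0.17, adjusted p = 0.52). *Lss*, the lanosterol synthase that closes the ring, was at 51.8, 60.6 and 52.5 CPM in control gRNA, 38.9, 36.7 and 44.5 in *Slc2a1* gRNA and 32.6, 31.6 and 28.9 in *Slc2a1/3/5/6/8* gRNA replicates 1, 2 and 3. Its fall was -0.45 ± 0.12 (SE) with the *Slc2a1* gRNA, close to the threshold (adjusted p = 0.049), and -0.83 ± 0.12 (SE) with the 5 gRNAs (adjusted p = 0.0014).

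From lanosterol to cholesterol, 4 of 7 tested enzymes fell with the *Slc2a1* gRNA and 5 with the 5 gRNAs. *Msmo1*, the methylsterol oxidase at chr8:64718139-64733792, was at 71.1, 91.3 and 76.8 CPM in control gRNA, 37.6, 34.3 and 51.0 in *Slc2a1* gRNA and 27.5, 28.7 and 34.0 in *Slc2a1/3/5/6/8* gRNA replicates 1, 2 and 3. It fell to 50.9% (-0.97 ± 0.14 (SE), adjusted p = 0.0063) and 37.5% of control (-1.42 ± 0.14 (SE), adjusted p = 1.4e-04). Its partner in removing the methyl groups, the dehydrogenase *Nsdhl*, was at 21.4, 27.7 and 21.7 CPM in control gRNA, 12.9, 12.1 and 16.4 in *Slc2a1* gRNA and 13.0, 13.3 and 11.3 in *Slc2a1/3/5/6/8* gRNA replicates 1, 2 and 3. *Nsdhl* fell by 0.77 and by 0.91 on the log2 scale (adjusted p = 0.022 and 0.0036).

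*Cyp51*, the lanosterol demethylase, was at 137, 167 and 143 CPM in control gRNA, 87.7, 73.7 and 107 in *Slc2a1* gRNA and 89.3, 92.3 and 94.1 in *Slc2a1/3/5/6/8* gRNA replicates 1, 2 and 3. Both targeted groups fell, to 59.6% and 61.5% of control (adjusted p = 0.015 and 0.0056), and the difference between them was 0.04 ± 0.13 (SE) log2. *Dhcr7*, whose product makes cholesterol from 7-dehydrocholesterol, was at 96.7, 105 and 96.7 CPM in control gRNA, 61.6, 53.7 and 74.0 in *Slc2a1* gRNA and 53.9, 58.5 and 51.7 in *Slc2a1/3/5/6/8* gRNA replicates 1, 2 and 3. It fell to 63.4% and 55.1% (adjusted p = 0.018 and 0.0015). *Ebp*, the sterol isomerase, was at 30.1, 25.2 and 25.6 CPM in control gRNA, 26.1, 24.6 and 22.1 in *Slc2a1* gRNA and 21.3, 20.7 and 18.8 in *Slc2a1/3/5/6/8* gRNA replicates 1, 2 and 3. Its smaller fall passed with the 5 gRNAs (-0.41 ± 0.11 (SE), adjusted p = 0.026) and in 10 of 18 alternatives. *Sc5d*, the desaturase after it, overlapped control in both groups, at 96.4% and 99.0% of control (adjusted p = 0.85 and 0.95). *Tm7sf2*, a sterol reductase, was at 73.6% and 65.3% (adjusted p = 0.22 and 0.055).

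**Figure D3:**
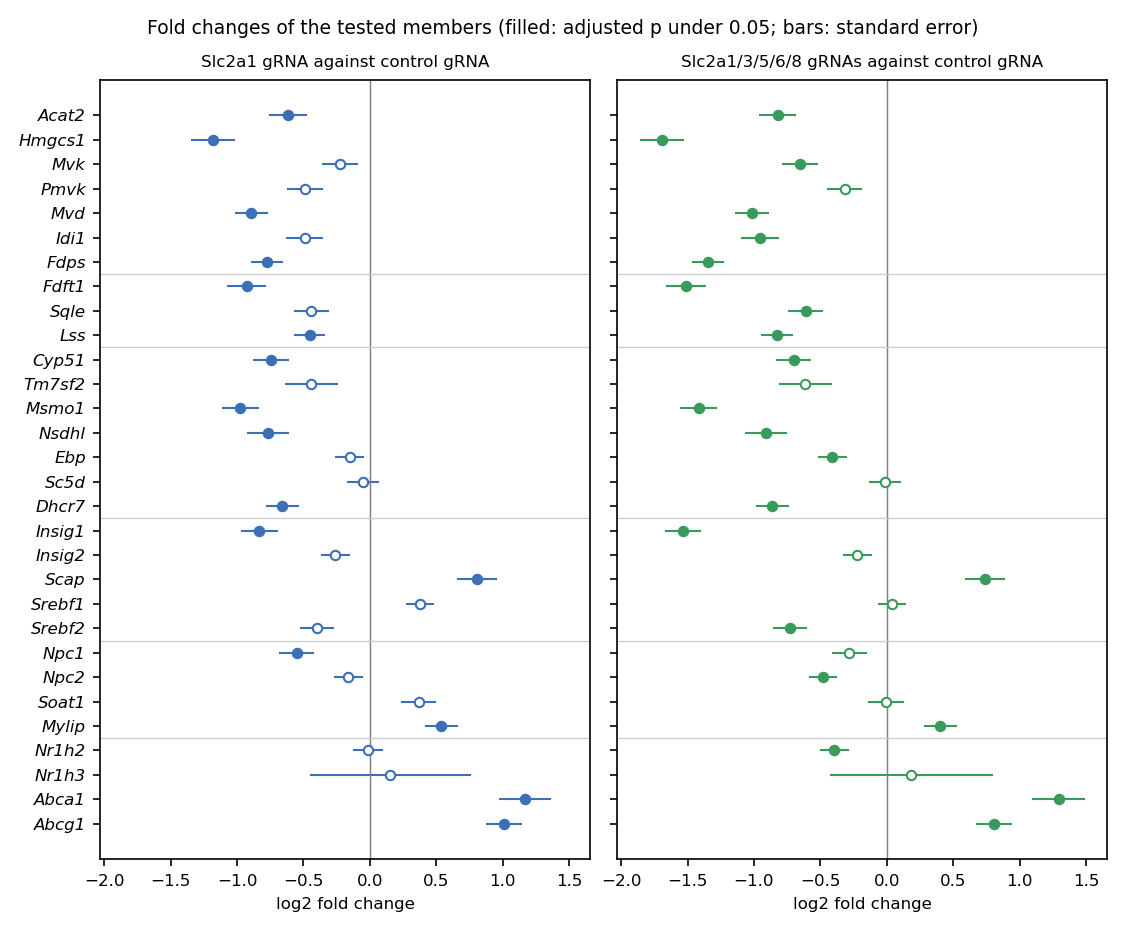
log2 fold change with its standard error for the 30 tested genes, ordered by role and separated by grey lines, with the *Slc2a1* gRNA (left) and the 5 gRNAs (right) against control. Filled points passed an adjusted p of 0.05. The enzymes at the top lie at or left of 0, from -1.69 for *Hmgcs1*, and *Abca1* is farthest right at 1.29 with the 5 gRNAs.

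Of the SREBP regulators, 1 fell and 1 rose with the *Slc2a1* gRNA, and 2 fell and 1 rose with the 5 gRNAs. *Insig1*, itself a well-known SREBP target that retains SCAP when sterols are plentiful, was at 234, 273 and 259.6 CPM in control gRNA, 129.7, 127 and 176 in *Slc2a1* gRNA and 85.2, 98.1 and 80.6 in *Slc2a1/3/5/6/8* gRNA replicates 1, 2 and 3. The 3 groups were apart, with 56.2% of control in the *Slc2a1* group (-0.83 ± 0.14 (SE), adjusted p = 0.011) and 34.5% with the 5 gRNAs (-1.53 ± 0.14 (SE), adjusted p = 7.2e-05). *Insig2*, its paralog, was at 24.0, 24.4 and 24.7 CPM in control gRNA, 19.9, 19.7 and 21.5 in *Slc2a1* gRNA and 21.6, 21.2 and 19.9 in *Slc2a1/3/5/6/8* gRNA replicates 1, 2 and 3. All targeted replicates lay under the controls by a small margin that did not pass (-0.26 and -0.22, adjusted p = 0.20 and 0.20), and the first of these became 0.0028 when counts were averaged over transcript length.

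*Srebf2* was at 521, 516 and 504 CPM in control gRNA, 393, 343 and 437 in *Slc2a1* gRNA and 294, 349.5 and 286 in *Slc2a1/3/5/6/8* gRNA replicates 1, 2 and 3. It fell to 60.3% of control with the 5 gRNAs (-0.73 ± 0.13 (SE), adjusted p = 0.0037), and its value with the *Slc2a1* gRNA, 76.1%, did not pass (adjusted p = 0.096) although the groups were apart. The latter fall passed by DESeq2 (adjusted p = 0.024) and by edgeR without a filter (0.033) or with only the 2 groups (0.0093). It also passed without replicate 2 of the 5 gRNAs (0.046), and did not pass by limma (0.13 and 0.12). *Scap* went the opposite way, at 35.7, 34.0 and 31.7 CPM in control gRNA, 72.2, 61.3 and 45.5 in *Slc2a1* gRNA and 50.02, 55.9 and 62.7 in *Slc2a1/3/5/6/8* gRNA replicates 1, 2 and 3. It rose 1.75-fold (0.81 ± 0.15 (SE), adjusted p = 0.017) and 1.67-fold (0.74 ± 0.15 (SE), adjusted p = 0.0076), and *Slc2a1* gRNA replicate 3 was the targeted sample nearest to control. Its call with the *Slc2a1* gRNA was kept in 10 of 18 alternatives and that with the 5 gRNAs in 15.

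*Srebf1*, which encodes the SREBP1 forms that mainly serve fatty acid synthesis, was at 107, 93.9 and 87.2 CPM in control gRNA, 142, 122 and 110.4 in *Slc2a1* gRNA and 98.0, 103 and 93.3 in *Slc2a1/3/5/6/8* gRNA replicates 1, 2 and 3. The *Slc2a1* group lay above control without passing (0.38 ± 0.11 (SE), adjusted p = 0.062), and the group with 5 gRNAs overlapped control (0.04 ± 0.11 (SE), adjusted p = 0.85). The former passed by DESeq2 (adjusted p = 0.015) and by edgeR with at least 10 counts per sample (0.044) or only the 2 groups (0.0071). It also passed without replicate 1 or 2 of the 5 gRNAs (0.024 and 0.047), and did not pass by limma (0.71 at either pseudocount). The transcript length that Salmon assigned to *Srebf1* was 3783, 3667 and 3691 bases with the 5 gRNAs, 3087, 3226 and 3049 in control and 3102, 3186 and 3423 with the *Slc2a1* gRNA. Measured per length instead, the log2 fold change with the 5 gRNAs was between -0.29 and -0.21, also without passing. The length in the group with 5 gRNAs was therefore above that of every other sample. The sign was also negative, near 0, with counts scaled by totals (-0.012) and without replicate 2 of the 5 gRNAs (-0.0057), so no direction can be read for *Srebf1* in this group.

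**Figure D4:**
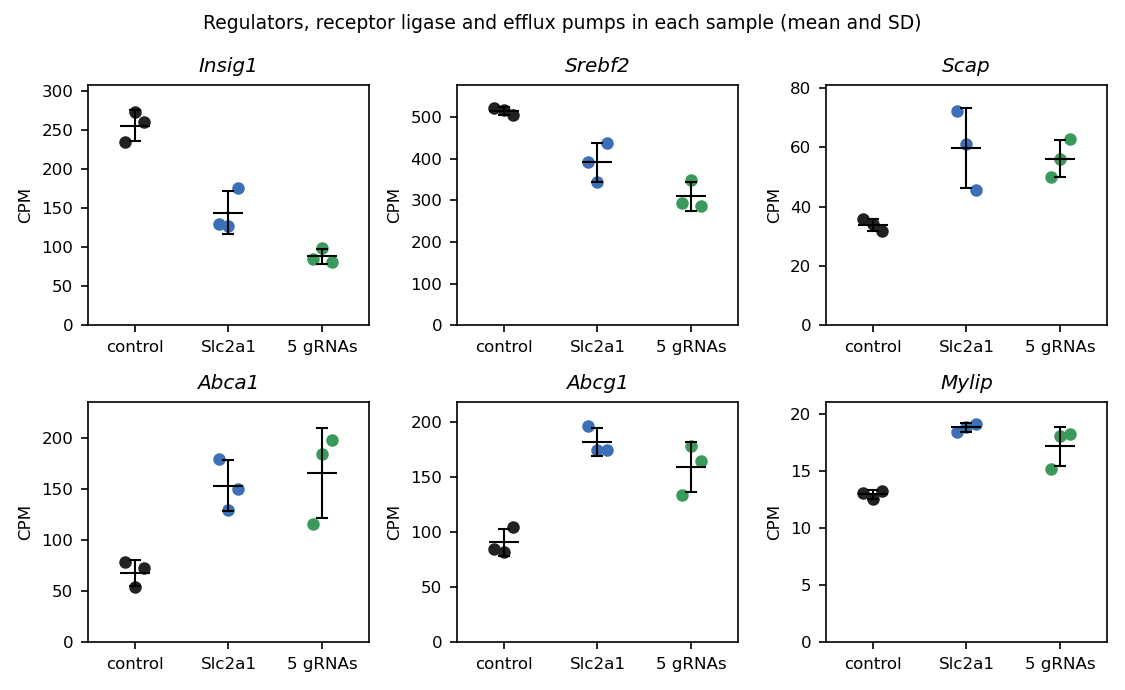
CPM in each replicate (points) with mean and SD (bars) for 3 SREBP regulators, the 2 efflux pumps and *Mylip*, on axes that start at 0. *Insig1* steps down from 256 through 144 to 88.0 CPM on average, while *Abca1* and *Abcg1* in targeted cells lie above every control replicate.

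Among genes of uptake, egress, transfer and storage, 1 of 4 tested fell and 1 rose in each comparison. *Npc1*, the membrane protein that exports cholesterol from lysosomes, was at 68.5, 64.9 and 84.4 CPM in control gRNA, 45.9, 41.6 and 61.9 in *Slc2a1* gRNA and 56.0, 64.6 and 56.6 in *Slc2a1/3/5/6/8* gRNA replicates 1, 2 and 3. It fell with the *Slc2a1* gRNA (-0.55 ± 0.13 (SE), adjusted p = 0.037) and did not pass with the 5 gRNAs (-0.28, adjusted p = 0.17). The first call was kept in 9 of 18 alternatives and lost without the replicate block (adjusted p = 0.063), and the difference between the targeted groups was not past the threshold either (0.27, adjusted p = 0.30). *Npc2*, the soluble partner that hands cholesterol to NPC1, was at 447, 424 and 387 CPM in control gRNA, 415, 349 and 361 in *Slc2a1* gRNA and 341, 299 and 265 in *Slc2a1/3/5/6/8* gRNA replicates 1, 2 and 3. It fell with the 5 gRNAs (-0.48 ± 0.11 (SE), adjusted p = 0.012) and overlapped control with the *Slc2a1* gRNA (adjusted p = 0.41).

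*Mylip* was at 13.1, 12.6 and 13.3 CPM in control gRNA, 18.5, 18.9 and 19.2 in *Slc2a1* gRNA and 15.2, 18.1 and 18.3 in *Slc2a1/3/5/6/8* gRNA replicates 1, 2 and 3. It rose 1.45-fold with the *Slc2a1* gRNA (0.54 ± 0.13 (SE), adjusted p = 0.032) and 1.32-fold with the 5 gRNAs (0.40 ± 0.13 (SE), adjusted p = 0.046). Both groups were above control in every replicate, yet the second call was kept in 3 of 18 alternatives and the first in 8. *Soat1*, which esterifies cholesterol for storage in droplets, was at 45.7, 42.3 and 41.2 CPM in control gRNA, 60.6, 48.4 and 57.8 in *Slc2a1* gRNA and 36.8, 49.5 and 42.3 in *Slc2a1/3/5/6/8* gRNA replicates 1, 2 and 3. It did not pass in either comparison (0.37 and -0.01, adjusted p = 0.13 and 0.98), although every *Slc2a1* gRNA replicate was above every control.

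The efflux pumps rose in both targeted groups. *Abca1*, which loads cholesterol and phospholipid onto apolipoprotein A-I and lies at chr4:53030787-53159895, was at 78.4, 53.9 and 72.5 CPM in control gRNA, 179, 129.8 and 150.1 in *Slc2a1* gRNA and 116, 184 and 198 in *Slc2a1/3/5/6/8* gRNA replicates 1, 2 and 3. In CPM every targeted replicate exceeded every control, a rise of 2.25-fold (1.17 ± 0.20 (SE), adjusted p = 0.011) and 2.45-fold (1.29 ± 0.20 (SE), adjusted p = 0.0017). *Abcg1*, which passes cholesterol on to lipoprotein particles and lies at chr17:31057675-31117988, was at 85.3, 81.9 and 105 CPM in control gRNA, 196, 175 and 175 in *Slc2a1* gRNA and 134, 179 and 164 in *Slc2a1/3/5/6/8* gRNA replicates 1, 2 and 3. It rose 2.02-fold (1.01 ± 0.14 (SE), adjusted p = 0.0056) and 1.75-fold (0.81 ± 0.14 (SE), adjusted p = 0.0027). The call with the *Slc2a1* gRNA was kept in 11 of 18 alternatives for *Abca1* and in 15 for *Abcg1*. With the 5 gRNAs the call was kept in 16 for each pump. Replicate 1 with the 5 gRNAs was the lowest targeted sample for both pumps, and in TPM it fell within the control range (7.88 TPM of *Abca1* against 8.55 in control replicate 3, and 20.8 TPM of *Abcg1* against 25.3). TPM differed between these 2 samples over genes in general. The median log2 of TPM over the control mean, across 11093 genes, was -0.382 in the former and 0.161 in control replicate 3. By limma on TPM none of the 4 rises of the list (*Scap*, *Mylip*, *Abca1* and *Abcg1*) passed in either comparison, with log2 fold changes for *Abca1* of 0.86 and 1.01 at a pseudocount of 1. Neither LXR receptor gene passed the test upwards. *Nr1h2* was at 97.4, 78.1 and 81.4 CPM in control gRNA, 84.1, 91.3 and 77.6 in *Slc2a1* gRNA and 71.1, 60.8 and 63.3 in *Slc2a1/3/5/6/8* gRNA replicates 1, 2 and 3, overlapping control in the *Slc2a1* group (-0.02, adjusted p = 0.96) and lower with the 5 gRNAs (-0.39 ± 0.11 (SE), adjusted p = 0.032), a call kept in 10 of 18 alternatives. *Nr1h3* stayed under 1 CPM in every sample, with log2 fold changes of 0.15 ± 0.61 (SE) and 0.19 ± 0.61 (SE) whose sign changed between alternatives.

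Macrophages express *Abca1* and *Abcg1* highly, so macrophage markers were summed beside these results. The 4 markers together reached 57.0 to 97.4 TPM in control, 31.1 to 47.2 TPM with the *Slc2a1* gRNA and 33.3 to 44.1 TPM with the 5 gRNAs. Nearly all of this was *Cd68*, a lysosomal protein gene, which was lower in both targeted groups (log2 fold changes -0.80 and -0.92, adjusted p = 0.015 and 0.0018). The defining genes *Adgre1*, *Csf1r* and *Lyz2* did not exceed 0.963 TPM in any sample. At 1 to 16 counts per sample, *Adgre1* went the other way from *Cd68* with the *Slc2a1* gRNA, without passing (edgeR adjusted p = 0.23). It was at 0.63, 0.73 and 0.57 CPM there, 0.21, 0.22 and 0.34 in control and 0.17, 0.044 and 0.14 with the 5 gRNAs. Of the 8 plasma cell markers, 7 passed in no comparison with control. The other was *Jchain*, the joining chain of secreted IgM and IgA, at 77.6, 73.5 and 66.2 CPM in control gRNA, 29.9, 21.8 and 34.5 in *Slc2a1* gRNA and 126, 119 and 83.2 in *Slc2a1/3/5/6/8* gRNA replicates 1, 2 and 3. It was lower with the *Slc2a1* gRNA (-1.33 ± 0.18 (SE), adjusted p = 0.0053) and higher with the 5 gRNAs (0.59 ± 0.17 (SE), adjusted p = 0.035), and its 3 groups did not overlap. The part of these markers in the results for the members was not tested.

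The last comparison set the targeted groups against each other, to see where 5 gRNAs differed from the *Slc2a1* gRNA alone. Of the 30 tested genes 2 were lower with the 5 gRNAs, against 0.947% of all genes, and the remaining 28 did not pass. The 2 were *Insig1*, at 61.4% of its level with the *Slc2a1* gRNA (-0.70 ± 0.14 (SE), adjusted p = 0.022), and *Fdps*, at 67.2% (-0.57 ± 0.12 (SE), adjusted p = 0.032). For both, all 3 replicates with the 5 gRNAs were below all 3 with the *Slc2a1* gRNA. The same held for 7 of the 17 enzymes, *Fdps* included, and for 10.3% of all genes. Those that did not pass the test included *Fdft1* (-0.58 ± 0.15 (SE), adjusted p = 0.073), *Msmo1* (-0.44 ± 0.14 (SE), adjusted p = 0.11) and *Idi1* (-0.46 ± 0.14 (SE), adjusted p = 0.10). *Hmgcs1* overlapped (-0.51 ± 0.17 (SE), adjusted p = 0.12), as did *Srebf2* (-0.34 ± 0.13 (SE), adjusted p = 0.18), *Abca1* (0.12 ± 0.19 (SE), adjusted p = 0.78), *Abcg1* (-0.20 ± 0.13 (SE), adjusted p = 0.45) and *Scap* (-0.07 ± 0.15 (SE), adjusted p = 0.86). Without the replicate block *Insig1* stayed past the threshold and *Fdps* did not (adjusted p = 0.064), and same-numbered samples of these groups did not deviate together. The 8 genes that passed against control in 1 comparison and not in the other (*Mvk*, *Idi1*, *Sqle*, *Ebp*, *Srebf2*, *Npc1*, *Npc2* and *Nr1h2*) did not pass between these groups, with adjusted p from 0.095 to 0.52. Of these, DESeq2 called *Idi1*, *Npc2* and *Nr1h2* between the targeted groups, and edgeR without a filter on low counts called *Idi1*. The calls for *Insig1* and *Fdps* were both lost without control replicate 3, without *Slc2a1* gRNA replicate 3, without replicate 3 of the 5 gRNAs, with only these 2 groups in the fit, by limma and with length-averaged counts, whereas DESeq2 called 8 genes, both of these among them.

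A further 52 genes of sterol synthesis, SREBP cleavage, lipoprotein uptake, sterol transfer at membrane contacts, oxysterol and LXR biology and the isoprenoid branches were listed by role, of which 48 were tested. With the *Slc2a1* gRNA 4 fell and 1 rose, and with the 5 gRNAs 5 fell and 6 rose, with median log2 fold changes of -0.02 and 0.03. Over all genes tested, 2.39% fell and 2.25% rose in the first comparison and 7.44% and 8.49% in the other, so the counts of this wider list lay near those shares or, for falls with the *Slc2a1* gRNA, a few genes above. *Tmem97*, which encodes a sterol-regulated membrane protein that binds NPC1, was at 57.7, 64.0 and 50.03 CPM in control gRNA, 58.2, 48.4 and 46.5 in *Slc2a1* gRNA and 36.5, 35.5 and 32.3 in *Slc2a1/3/5/6/8* gRNA replicates 1, 2 and 3. It fell with the 5 gRNAs (-0.72 ± 0.11 (SE), adjusted p = 0.0017) and not with the *Slc2a1* gRNA (-0.17, adjusted p = 0.40), and its difference between targeted groups passed (-0.55 ± 0.11 (SE), adjusted p = 0.025). *Erlin1*, an endoplasmic reticulum scaffold for protein degradation, rose with the 5 gRNAs to 1.37-fold (adjusted p = 0.018). *Nceh1*, a cholesterol ester hydrolase, rose to 1.38-fold (adjusted p = 0.029). Neither *Erlin1* nor *Nceh1* passed with the *Slc2a1* gRNA (adjusted p = 0.49 and 0.38). The difference between the targeted groups passed for *Erlin1* (0.60 ± 0.11 (SE), adjusted p = 0.019) and not for *Nceh1* (0.26 ± 0.13 (SE), adjusted p = 0.30).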

How the data were processed

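Gene-level tables of 9 samples of 5TGM1-Cas9 cells, grouped by their labels into control gRNA, *Slc2a1* gRNA and 5-gRNA cells, were used. RNA had been primed with oligo-dT and sequenced in pairs, and Salmon 1.5.1 is named in the submitters' processing notes. The index, annotation and settings are not given in the sources used here. The authors deposited, per gene, an estimated count (47.7% of those above 0 were not whole) and a TPM, with 2 other values, the length and effective length that Salmon assigned.

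After rounding, the estimated counts entered a quasi-likelihood test in edgeR 4.0.16 (R 4.3.3), with TMM factors and the default low-count filter. All 9 samples shared 1 fit with 4 residual degrees of freedom. Benjamini-Hochberg adjustment ran over 13834 genes, with a threshold of 0.05. Standard errors were derived from the F statistic. The replicate number was a block, because the study's legend describes a paired test. Deviations of same-numbered *Slc2a1* gRNA and control samples correlated at 0.149, 0.111 and 0.215, whereas those of the 5 gRNAs with control did so at 0.162, -0.065 and 0.127 and with the *Slc2a1* gRNA at -0.107, -0.0341 and -0.0421. Replicates differed by more than counting noise (lowest chi-squared over degrees of freedom 18.8).

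The 32 genes and all lists were chosen with earlier results of these data known. Named are members past the threshold in any comparison, every regulator, uptake and efflux member, and of the 52 further pathway genes at most 3 in each direction by adjusted p. Some of those are counted and not reported here by name. *Pmvk*, *Tm7sf2* and *Sc5d* show the range of members that did not pass. Coordinates are from GENCODE M21 (GRCm38), which holds 49351 of the 53077 names, and promoter sequences from RefSeq (GRCm38.p6). Alternatives were leaving out the replicate block, DESeq2 1.42.0, scaling by total counts, testing without a filter or with a minimum of 10 counts in each sample, fitting only the groups compared, limma 3.58.1 on log2(TPM + 1) and log2(TPM + 0.1), and each sample left out. Leaving out a sample of the group outside a comparison affects it only through the shared fit, and such runs count among the alternatives. Counts rebuilt from TPM at an averaged length were added after seeing the data. The edgeR step was tested on simulated data first.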

Additional observations from a re-analysis of the deposited data

Results flagged for a closer look

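For *Insig1* the difference from control was larger with the 5 gRNAs than with the *Slc2a1* gRNA by the test of that difference itself. It stood at a log2 fold change of -0.70 ± 0.14 (SE) between the targeted groups (adjusted p = 0.022), passed in 11 of 18 alternatives and ranged from -0.85 to -0.52 over them, with adjusted p between 9.0e-06 and 0.24. *Fdps* differed in the same way, at -0.57 ± 0.12 (SE) and an adjusted p of 0.032. It passed in 6 of 18 alternatives, with log2 fold changes between -0.64 and -0.47 and adjusted p between 7.8e-04 and 0.27. The group with the 5 gRNAs was also sorted and expanded before the *Slc2a1* gRNA was added, which cannot be told apart from the added gRNAs.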

How the results depend on the processing

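Values past the threshold kept their direction in all 720 re-runs of single genes, and 174 of these lost the threshold. With the *Slc2a1* gRNA, 16 members passed. DESeq2 gave 21, no replicate block 15, limma with a pseudocount of 1 gave 0 (20 at an unadjusted p under 0.05), and of 0.1 gave 5, and length-averaged counts, added after seeing the data, 7. Leaving out 1 sample of the 2 groups compared gave 0 to 17, and 1 sample of the 5 gRNAs gave 17 to 20. With the 5 gRNAs, 22 passed, with 22 under no replicate block, 11 and 12 by limma (pseudocounts 1 and 0.1) and 15 to 23 with 1 sample left out. Between the targeted groups 2 passed, against 8 by DESeq2, 6 with no filter, 1 without the replicate block, and 0 in a fit of only the 2 groups (11 unadjusted), 0 by limma at either pseudocount (4 unadjusted each) and 0 with length-averaged counts (13 unadjusted). Leaving out 1 sample gave 0 to 2. The median of all genes moved to -0.11 and -0.16 in the limma fits with the *Slc2a1* gRNA, so TPM-based values there sit on that shift.

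Signs reversed for values that had not passed. With the *Slc2a1* gRNA, *Insig2* became 0.0028 with length-averaged counts, and *Nr1h3* -0.33 and -0.79 by limma and -0.70 with length-averaged counts. With the 5 gRNAs, *Srebf1* became -0.012 with total counts, -0.28 and -0.29 by limma and -0.21 with length-averaged counts. Between targeted groups *Insig2* became -0.21 and -0.23 by limma and -0.25 with length-averaged counts, and *Nr1h3* -0.020 without the replicate block and -0.060 with only the 2 groups. With 1 sample left out, values ran from -0.13 to 0.066 for *Nr1h2* and -0.10 to 0.76 for *Nr1h3* (*Slc2a1* gRNA), from -0.0057 to 0.12 for *Srebf1*, -0.17 to 0.14 for *Soat1* and -0.18 to 0.76 for *Nr1h3* (5 gRNAs). Between targeted groups they ran from -0.0020 to 0.11 for *Insig2*, -0.26 to 0.11 for *Scap*, -0.34 to 0.56 for *Nr1h3* and -0.11 to 0.45 for *Abca1*. The cause of these changes was not tested. Depth limits *Nr1h3*, at 7 to 22 counts, and nothing is measured for *Hsd17b7* and *Stard4* beyond a count of 0.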

Other observations

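The transcript length that Salmon assigned separated the group with the 5 gRNAs from both other groups for *Idi1*, *Lss* and *Mvk* as well as *Srebf1*, genes singled out after their lengths were seen. *Idi1* was at 3027, 3014 and 3027 bases with the 5 gRNAs and between 2868 and 2968 bases in the other 6 samples. *Lss* was at 5104, 5116 and 5001 bases against 4188 to 4902, and *Mvk* at 1551, 1535 and 1528 bases against 1565 to 1611. *Cyp51* split another way, at 3427, 3507 and 3511 bases with the *Slc2a1* gRNA and 3599 to 3931 in the other 6 samples. The share of all genes with such splits was not computed, so whether they are unusual cannot be told. *Insig2*, *Soat1* and *Nr1h3* varied in assigned length by 1.87-fold, 1.81-fold and 4.17-fold between single samples, without a split by group for *Insig2* and *Soat1*. Salmon estimates such lengths from the mix of transcripts, and no transcript-level values were analysed here.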
